A study of Homo sapiens with 26 samples.

Results

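The G1 cyclins and the proteins that drive or restrain their kinases were followed through 10 genes (CCND1, CCND2, CCND3, CCNE1, CCNE2, CDK4, CDK6, CDKN1B, CDKN1C and CDKN2A), out of 18417 genes with a single-symbol transcript cluster on the array. The genes were listed by symbol, and the cluster of each was chosen by its mean level over the arrays, as the highest among those naming exactly 1 gene. Every one of the 10 had a single such cluster, so the mean decided nothing. The list was drawn up with results of these arrays in view, so the levels below are a description, and the counts are set beside the share of all genes called.

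The arrays (26 Affymetrix Human Gene 1.0 ST arrays, 2 per group) came from NCCIT, an established human embryonic carcinoma line grown with fetal bovine serum. Of the 13 groups, 11 received siRNA against DNA methyltransferases. Single targets were DNMT1 (siDNMT1), DNMT3A (siDNMT3A), DNMT3B (siDNMT3B) and DNMT3L (siDNMT3L). DNMT1 was combined with DNMT3A (siD1+3A), with DNMT3B (siD1+3B) and with both of these (siD1+3A+3B). Combinations without DNMT1 paired DNMT3A with DNMT3B (3A+3B) or DNMT3L (3A+3L), and DNMT3B with DNMT3L (3B+3L), or joined all 3 (3A+3B+3L). The siNTC-1 and siNTC-2 groups received control siRNA. All groups were thus transfected and of 1 line, which limits them as a model, and the labels give neither the siRNA dose nor the time of harvest. DNMT1 copies methylation onto newly replicated DNA, DNMT3A and DNMT3B methylate unmodified sites, and DNMT3L is a catalytically inactive cofactor.

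In G1 the D cyclins (CCND1, CCND2, CCND3) bind and activate CDK4 and CDK6, and the E cyclins (CCNE1, CCNE2) later activate CDK2. Both kinase complexes phosphorylate the retinoblastoma protein, which frees E2F factors to transcribe genes of DNA synthesis. CDKN1B (p27) and CDKN1C (p57) bind cyclin and kinase complexes, while CDKN2A encodes p16, which blocks CDK4 and CDK6, and, from another first exon, p14ARF, which stabilizes p53. Pluripotent and embryonic carcinoma cells are known for a short G1 phase.

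The main axis of variation among clusters without a gene symbol (a principal component with 35.3% of their variance) divided the arrays into 2 sets. The first set held siDNMT1, siDNMT3B, siDNMT3L and siNTC-1 (8 arrays), and the second held the other 9 groups (18 arrays), siNTC-2 among them. No label names a batch or ties a depletion to either control. Each depletion was therefore set against the control of its own set, and calls of the 10 genes that are lost or gained with the mean of both controls are given as well. Relative to that control, DNMT1 was at 37.4% to 59.5% in the 4 groups that received its siRNA, DNMT3A at 67.0% to 78.5% in 6, DNMT3L at 68.3% to 79.7% in 4 and DNMT3B at 50.3% to 99.4% in 6. All of these were called lower except DNMT3B in the arrays labelled 3A+3B+3L, which is the 99.4%. Against siNTC-2 that label is therefore not borne out for DNMT3B. The DNMT3B level was 11.63 and 11.69 on these arrays, 11.68 and 11.66 on siNTC-2 and 11.91 and 12.05 on siNTC-1. DNMT3L was also lower in siDNMT1, which received no DNMT3L siRNA, at 75.6% of siNTC-1 (adjusted p = 0.0203, limma). Its arrays read 5.47 and 5.66 in siDNMT1, against 5.76 and 6.17 in siNTC-1. In siDNMT3B, also without DNMT3L siRNA, they read 5.66 and 5.65, a difference that was not called. In the arrays labelled 3A+3B+3L, DNMT3B was 0.29 lower (log2) than in 3A+3L (adjusted p = 0.106, limma). Of 10 pluripotency markers 7 were measured, and their mean level was 11.46 to 11.63 in the first set and 11.29 to 11.5 in the second, whereas 10 differentiation markers averaged 4.99 to 5.2 and 7 fibroblast and blood markers 4.61 to 4.81. Levels are log2 values, and across all genes the quartiles of the mean level were 4.87, 6.8 and 8.85. Genes are compared between groups only, because the response of different probes differs. In bulk RNA of this kind, a change in the share of cells in G1 and a change of RNA per cell cannot be told apart.

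CCND1, cyclin D1, rose in all 11 depletions. Its level was 8.87 and 8.86 on the siDNMT1 arrays, 8.66 and 8.71 on siDNMT3B and 8.68 and 8.68 on siDNMT3L, against 7.63 and 7.78 on siNTC-1. These 6 depletion arrays lay well above the 2 control arrays of their set, with no overlap. Differences were 1.16 ± 0.06 (log2, SE, n = 2 per group) for siDNMT1, a 2.24-fold higher level with adjusted p = 8.04e-10, 0.98 for siDNMT3B (1.97-fold, 5.09e-09) and 0.97 for siDNMT3L (1.96-fold, 1.02e-08). All adjusted p-values here and below come from limma with Benjamini-Hochberg adjustment over the 18417 genes. Since nothing in the labels tells whether the 2 arrays of a group stem from separate cultures, these p-values measure only the spread between these samples, which may be technical.

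In the second set CCND1 was 8.73 and 8.80 in siD1+3B, 8.62 and 8.65 in siD1+3A, and 8.58 and 8.57 in siD1+3A+3B, against 7.93 and 7.94 in siNTC-2. The arrays without DNMT1 siRNA stood between, with siDNMT3A at 8.26 and 8.26, 3A+3B at 8.06 and 8.26, 3A+3L at 8.22 and 8.32, 3B+3L at 8.35 and 8.23, and those labelled 3A+3B+3L at 8.45 and 8.46. All 9 groups of the second set therefore kept the order of control lowest and DNMT1 combinations highest, with no overlap between these 3 tiers. The differences from siNTC-2 were 0.83 for siD1+3B (1.78-fold, adjusted p = 2.95e-08), 0.70 for siD1+3A (1.63-fold, 2.96e-07) and 0.64 for siD1+3A+3B (1.56-fold, 1.52e-06). Without DNMT1 siRNA they ran from 0.23 in 3A+3B (1.17-fold, 0.0242) through 0.32 in siDNMT3A, 0.34 in 3A+3L and 0.36 in 3B+3L to 0.52 in 3A+3B+3L (1.44-fold, 8.57e-06). The 3A+3B call was lost without either siNTC-2 array (0.22 without replicate 1, 0.23 without replicate 2) or without 3A+3B replicate 2 (0.13).

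Over both sets, the 22 depletion arrays spanned 8.06 to 8.87 (median 8.57), all above the 4 control arrays (7.63 to 7.94). Such a separation was seen in 138 of 18417 genes (0.749%), and 96 genes (0.521%) were called higher in every one of the 11 depletions, CCND1 among them. The gene was chosen with this pattern known, and the 11 comparisons share 2 control groups. Against both controls together CCND1 was again called in all 11, by 0.34 to 1.05, as were 156 genes in all (0.847%). A further 59 genes (0.32%) were lower in each of the 11 against the control of their set. In the order of its 13 group means, 4 of 12 neighbouring pairs overlapped.

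**Figure D1:**
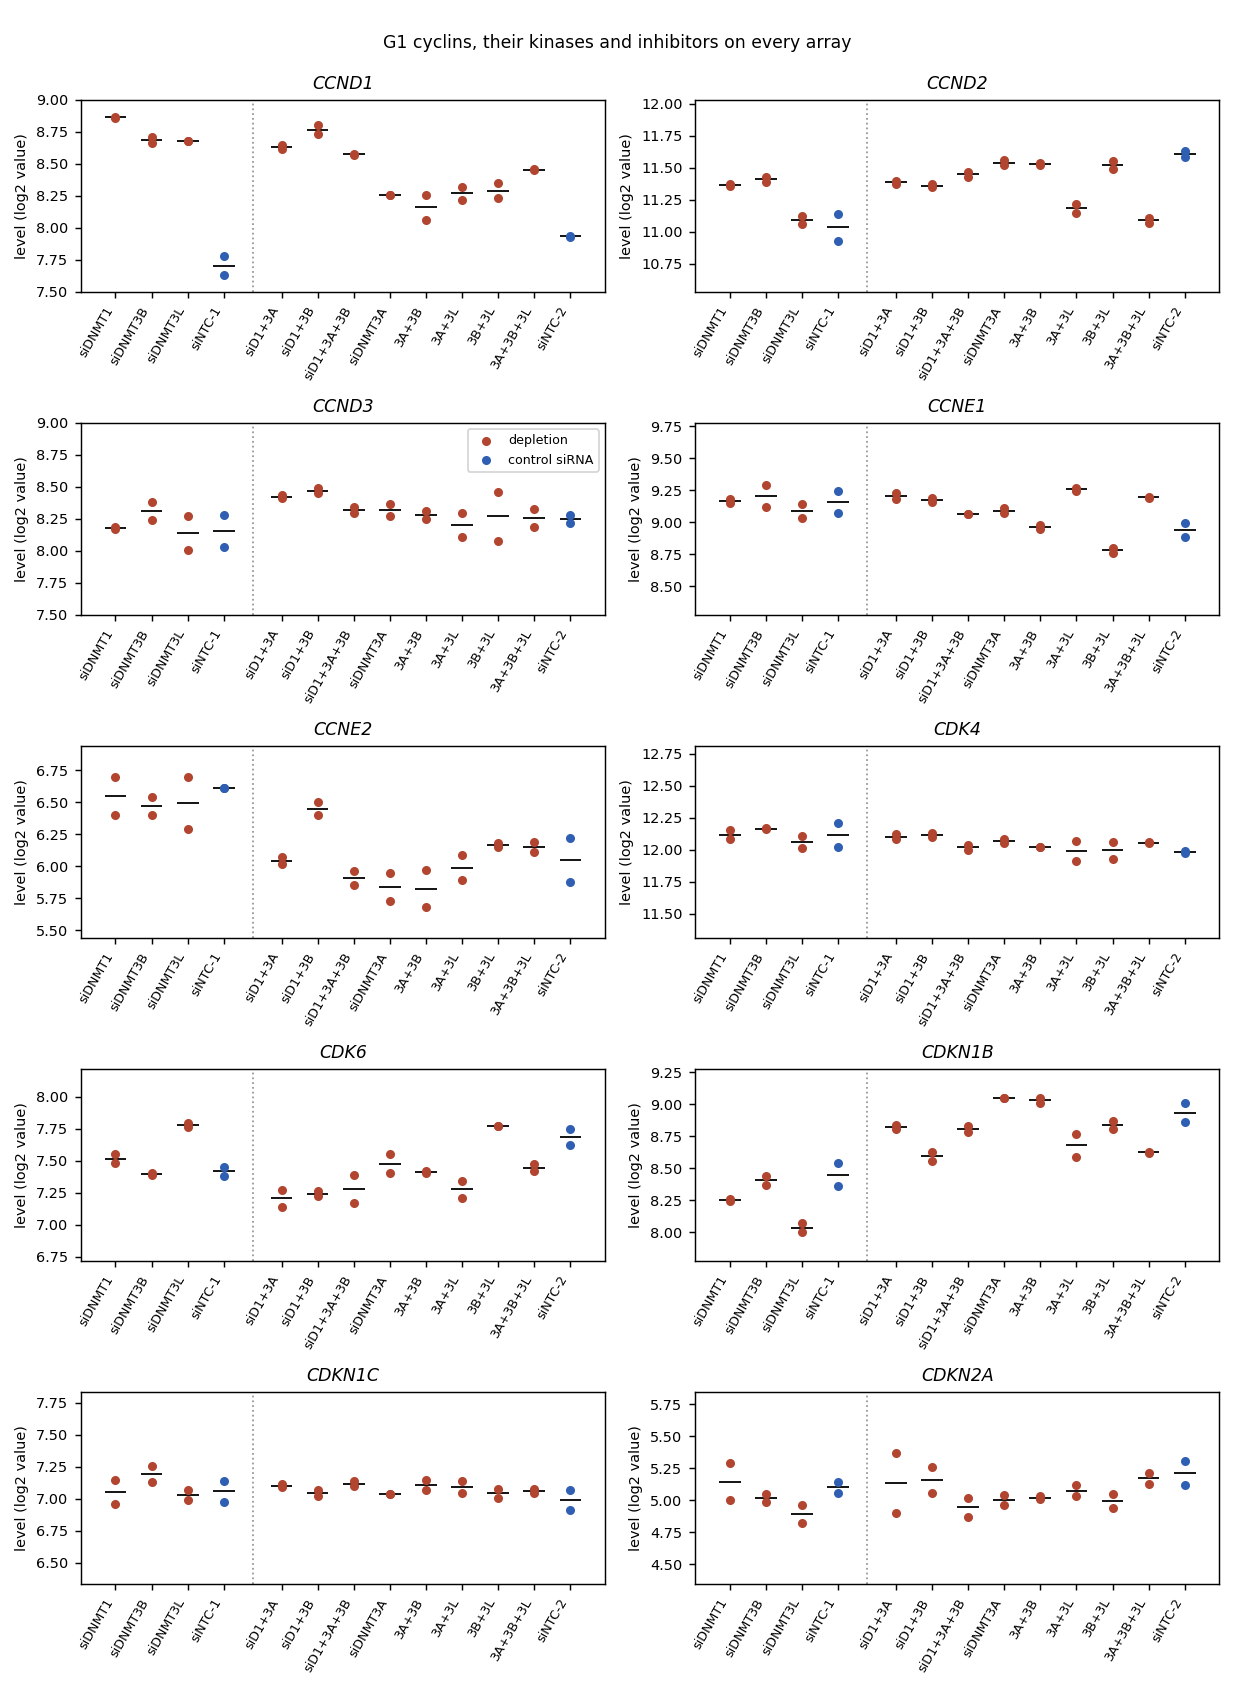
Level (log2 value) of the 10 genes on each array, with the groups along the horizontal axis, a dotted line between the 2 sets of arrays, and the control last in each set. Points are arrays, red for depletions and blue for control siRNA, and bars are group means. CCND1 sits at 8.06 to 8.87 on the 22 depletion arrays and at 7.63 to 7.94 on the 4 control arrays, whereas CDK4 stays between 11.91 and 12.21 on all 26.

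CCND2, cyclin D2, rose in 2 groups of the first set and fell in 4 groups of the second. It measured 11.37 and 11.36 in siDNMT1 and 11.39 and 11.43 in siDNMT3B, against 11.14 and 10.93 in siNTC-1, differences of 0.33 (adjusted p = 4.9e-04) and 0.38 (9.99e-05). In siDNMT3L it was 11.12 and 11.06, which differed from siNTC-1 by 0.06 and was not called. In the second set it was 11.15 and 11.22 in 3A+3L and 11.07 and 11.11 in the arrays labelled 3A+3B+3L, against 11.58 and 11.63 in siNTC-2.

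These 2 groups lay below every other array of their set, with differences of -0.42 (3.54e-05) and -0.52 (3.12e-06). Lower by less were siD1+3A at -0.22 (0.00853) and siD1+3B at -0.25 (0.00345), while siD1+3A+3B, siDNMT3A, 3A+3B and 3B+3L differed by -0.16 to -0.06 and did not pass. The siD1+3A call was lost without siNTC-2 replicate 2 (-0.20) or siD1+3A replicate 1 (-0.21). The 2 controls themselves differed by 0.57 (siNTC-2 minus siNTC-1, 2.28e-07), so the CCND2 values turn on the control used. Against both together, siDNMT1 was 0.04, siDNMT3B 0.09, siD1+3A 0.07 and siD1+3B 0.04 higher, none called, and 3A+3L at -0.13 was no longer called, whereas 3A+3B+3L was still called. Further, siDNMT3A (0.22, 0.00233), 3A+3B (0.21, 0.00391) and 3B+3L (0.20, 0.00458) were then called higher and siDNMT3L (-0.23, 0.00155) lower, and siD1+3A+3B was at 0.13, not called.

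CCND3, cyclin D3, was called in 0 of the 27 comparisons made (limma, 0 at an unadjusted p under 0.05). Its level spanned 8.01 to 8.49 on the 22 depletion arrays and 8.03 to 8.28 on the 4 control arrays. The largest difference was 0.22 ± 0.11 in siD1+3B against siNTC-2 (adjusted p = 0.157), with a 95% interval of -0.01 to 0.45. A rise of that size is therefore within what the 2 arrays per group allow, and with the mean of both controls siD1+3B was called at 0.27.

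Cyclin E1 and cyclin E2 did not share a pattern. CCNE1 rose in 4 groups of the second set. It was 9.24 and 9.27 in 3A+3L, 9.23 and 9.18 in siD1+3A, 9.19 and 9.16 in siD1+3B and 9.20 and 9.19 in the arrays labelled 3A+3B+3L, against 8.88 and 8.99 in siNTC-2. The 8 depletion arrays were all higher than both control arrays, by 0.32 (adjusted p = 0.00115), 0.27 (0.00375), 0.24 (0.00814) and 0.26 (0.00554). Without siNTC-2 replicate 1 the last 3 differences were 0.22, 0.19 and 0.20 and no longer called, and siD1+3B was also not called without its own replicate 1 (0.22).

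CCNE1 in siNTC-1 (9.07 and 9.24) lay within the range of the siDNMT1, siDNMT3B and siDNMT3L arrays (9.03 to 9.29), and the 3 differences ran from -0.07 to 0.05 with none called. With the mean of both controls the differences of siD1+3B (0.13) and 3A+3B+3L (0.15) were not called, and siDNMT3B (0.16) and 3B+3L (-0.26) were. The window of 250 bases before the CCNE1 start is shown because it is the most CpG-rich of those found for these genes, and CpG is the dinucleotide that DNA methyltransferases act on. It lies at chr19:29811741-29811990 on the + strand (RefSeq, GRCh38.p14), with CpG in capitals. The 39 CpGs compare with a median of 11 over 35116 such windows, of which 2.65% hold as many. Methylation was not measured on these arrays.

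CCNE1: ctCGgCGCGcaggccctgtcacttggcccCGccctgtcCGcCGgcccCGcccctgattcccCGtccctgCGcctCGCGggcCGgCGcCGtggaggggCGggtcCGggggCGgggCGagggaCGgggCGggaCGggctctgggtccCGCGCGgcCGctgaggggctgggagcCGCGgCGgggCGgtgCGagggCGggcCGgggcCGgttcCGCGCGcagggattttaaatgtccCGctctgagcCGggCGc

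CCNE2 was called in 1 depletion. In siD1+3B it measured 6.50 and 6.40, against 6.22 and 5.88 in siNTC-2, a difference of 0.40 ± 0.13 (adjusted p = 0.0386). That call was lost without siNTC-2 replicate 2 (0.23), siD1+3B replicate 1 (0.34) or siD1+3B replicate 2 (0.45). Its duplicates differed widely (SD 0.151 over the 13 groups), and 11 of 12 neighbouring pairs of group means overlapped. The 1 pair without overlap was siD1+3B (6.45) above 3B+3L (6.16). Depletion arrays of the first set lay at 6.29 to 6.70 and those of the second at 5.68 to 6.50. Against both controls together siD1+3B was at 0.12 (0.523) and no longer called, and 4 groups were called lower: siDNMT3A (-0.49, 0.00395), 3A+3B (-0.51, 0.00333), siD1+3A+3B (-0.43, 0.0117) and 3A+3L (-0.34, 0.0379).

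CDK4 held a narrow range and CDK6 did not. CDK4, the main kinase partner of the D cyclins in most cell types, was 11.91 to 12.17 on the 22 depletion arrays and 11.97 to 12.21 on the 4 control arrays. It was called in 0 of 27 comparisons (limma, 0 at an unadjusted p under 0.05), and its largest difference was -0.13 between siNTC-2 and siNTC-1 (adjusted p = 0.104). That comparison passed with a trended and robust variance prior.

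CDK6, the other kinase partner of the D cyclins, fell in 6 groups of the second set and rose in 1 group of the first. It was 7.14 and 7.27 in siD1+3A, 7.17 and 7.39 in siD1+3A+3B and 7.26 and 7.22 in siD1+3B, against 7.75 and 7.62 in siNTC-2. All 6 arrays with DNMT1 siRNA lay below both controls, with log2 differences of -0.47 (adjusted p = 9.84e-05), -0.41 (6.01e-04) and -0.44 (1.66e-04). In 3A+3L it was 7.21 and 7.34, a difference of -0.40 (4.48e-04), and in 3A+3B 7.42 and 7.40, a difference of -0.27 (0.0195). The arrays labelled 3A+3B+3L (7.47 and 7.42) differed by -0.24 (0.0223), siDNMT3A (7.55 and 7.40) by -0.21 (0.0623, not called) and 3B+3L (7.77 and 7.77) by 0.09.

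In the first set CDK6 was 7.76 and 7.79 in siDNMT3L, against 7.45 and 7.38 in siNTC-1, so both siDNMT3L arrays exceeded both control arrays (0.36, adjusted p = 0.00173). Neither siDNMT1 (0.10) nor siDNMT3B (-0.02) was called. Leaving out 1 array ended the 3A+3B call (-0.20 without siNTC-2 replicate 1, -0.28 and -0.26 without its own replicate 1 and 2) and the 3A+3B+3L call (-0.17 without siNTC-2 replicate 1, -0.26 and -0.22 without its own replicate 1 and 2). With the mean of both controls 3A+3B (-0.14) and 3A+3B+3L (-0.11) were not called, and 3B+3L was called at 0.22. The 250 bases before one annotated CDK6 start, at chr7:92836574-92836823 on the - strand, hold 30 CpGs (as many in 12.4% of windows) and 3 matches to the GC box GGGCGG on either strand, a motif present in 42.6% of all windows. It is shown, with CpG in capitals, as the CpG-rich start of the kinase that moved most among the groups.

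CDK6: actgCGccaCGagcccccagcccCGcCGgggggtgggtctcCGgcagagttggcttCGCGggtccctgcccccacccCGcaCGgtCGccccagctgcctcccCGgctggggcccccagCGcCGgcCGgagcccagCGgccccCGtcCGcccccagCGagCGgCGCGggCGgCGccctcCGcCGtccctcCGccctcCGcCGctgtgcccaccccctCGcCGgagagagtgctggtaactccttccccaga

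CDKN1B, the inhibitor p27, fell in 2 groups of the first set and in 3 groups of the second. It was 8.07 and 8.0 in siDNMT3L and 8.24 and 8.26 in siDNMT1, against 8.36 and 8.54 in siNTC-1, with differences of -0.41 (adjusted p = 2.73e-04) and -0.20 (0.043). In the second set it was 8.56 and 8.63 in siD1+3B, 8.62 and 8.63 in the arrays labelled 3A+3B+3L and 8.59 and 8.77 in 3A+3L, against 8.86 and 9.01 in siNTC-2. Each of these 6 arrays lay below both siNTC-2 arrays, with differences of -0.34 (9.51e-04), -0.31 (0.00217) and -0.26 (0.00921).

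The siDNMT1 call was lost without siNTC-1 replicate 2 (-0.12) or without either siDNMT1 array (-0.19 and -0.21), and the 3A+3L call without siNTC-2 replicate 2 (-0.18) or 3A+3L replicate 1 (-0.16). CDKN1B stood 0.49 higher in siNTC-2 than in siNTC-1 (1.07e-05), and with the mean of both controls siD1+3B (-0.10), 3A+3L (-0.01) and 3A+3B+3L (-0.07) were not called, siDNMT3B (-0.29) was called lower and siDNMT3A (0.35) and 3A+3B (0.33) higher. The differences of siDNMT1 and siDNMT3L were then -0.44 and -0.66. The window before the CDKN1B start, at chr12:12717118-12717367 on the + strand, holds 27 CpGs (as many in 17.7% of windows), 1 GC box and 2 matches to CCAAT, a motif in 32% of windows. It is shown as that of the inhibitor with the most calls, and the E2F site TTTGGCGC was found in none of the 10 windows of the 6 matched genes (0.55% of all windows hold it).

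CDKN1B: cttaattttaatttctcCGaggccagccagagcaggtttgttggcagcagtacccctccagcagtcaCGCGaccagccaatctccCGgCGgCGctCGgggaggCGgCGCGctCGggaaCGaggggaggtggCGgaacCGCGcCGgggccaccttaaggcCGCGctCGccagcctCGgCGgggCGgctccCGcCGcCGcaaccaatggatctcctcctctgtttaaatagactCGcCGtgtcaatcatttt

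CDKN1C and CDKN2A, whose promoters are known to be silenced by DNA methylation in some tumours, were called in 0 of 27 comparisons each. CDKN1C was 6.96 to 7.26 on the depletion arrays and 6.91 to 7.14 on the control arrays (limma, 1 comparison at an unadjusted p under 0.05), and all 12 neighbouring pairs of its group means overlapped. Its largest difference, 0.16 between siDNMT3B and siDNMT3L, had an adjusted p of 0.172. With the mean of both controls, siDNMT3B was 0.17 higher (adjusted p = 0.0444).

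CDKN2A was 4.82 to 5.37 on the 22 depletion arrays and 5.06 to 5.31 on the 4 control arrays, just above the lowest quartile of all genes, and it did not pass the filter on the dimmest 40% of genes. In 16 of the 22 depletion arrays it lay below all controls, but the share of all genes that did so was not taken. All 12 neighbouring pairs of its group means overlapped. In 2 comparisons its unadjusted p was under 0.05 (limma), with a smallest adjusted p of 0.148. A difference was not detectable at this signal. The files do not say which exons its cluster covers, so the transcripts of p16 and p14ARF were not told apart. The window of 1 annotated start, at chr9:21974858-21975107 on the - strand, is shown because its levels were low and flat. It holds 20 CpGs (as many in 32.4% of windows).

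CDKN2A: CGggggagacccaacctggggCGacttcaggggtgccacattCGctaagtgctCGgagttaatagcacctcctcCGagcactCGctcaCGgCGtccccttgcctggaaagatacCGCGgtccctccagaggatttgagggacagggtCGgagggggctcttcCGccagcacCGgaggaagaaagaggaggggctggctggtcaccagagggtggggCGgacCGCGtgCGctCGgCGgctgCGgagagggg

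The genes beside these 2 inhibitors gave other values. PHLDA2, a growth-restraining gene of the imprinted cluster that holds CDKN1C, rose in 7 depletions, by 0.57 in siD1+3A, 0.40 in siD1+3B, 0.42 in siD1+3A+3B, 0.44 in siDNMT3B, 0.34 in 3A+3B, 0.49 in 3A+3L and 0.51 in 3A+3B+3L. It also stood 0.37 lower in siNTC-2 than in siNTC-1 (adjusted p = 0.0108). KCNQ1, the potassium channel gene of the cluster, was not called in any depletion (-0.05 to 0.25). Beside CDKN2A, MTAP, an enzyme of methionine salvage, was 0.20 higher in 3A+3B+3L (adjusted p = 0.0216) and 0.18 higher in siD1+3A and in siD1+3A+3B. It was, however, 0.19 lower in siNTC-2 than in siNTC-1 (0.0135). CDKN2B, which encodes p15, was not called. The arrays read 4.45 to 4.9 for KCNQ1 and 4.17 to 4.56 for CDKN2B. These levels are near or under the lowest quartile of all genes (4.87), so their lack of calls says little.

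**Figure D2:**
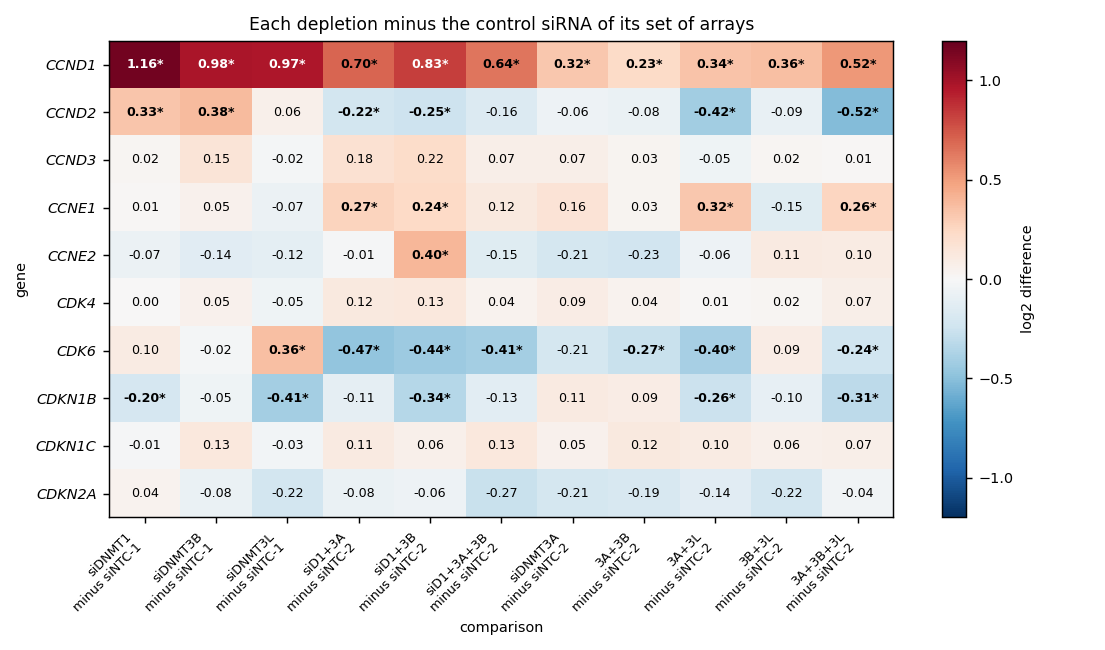
Log2 difference of each of the 10 genes (vertical axis) in the 11 depletions, each against the control siRNA of its own set, with an asterisk where the adjusted p was under 0.05. CCND1 is higher in every column, CDK6 is lower in 6 of the second set's columns, and CCND3, CDK4, CDKN1C and CDKN2A carry no asterisk.

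Counted over the 10 genes, 34 of the 110 differences against the control of the set passed, 19 higher and 15 lower, against 19.4% of all genes over the same comparisons (9.37% higher and 10.1% lower). In siDNMT1 3 of the 10 genes passed (19.8% of all genes), in siDNMT3B 2 (24.2%), in siDNMT3L 3 (19.2%) and in siDNMT3A 1 (15.8%). In the DNMT1 combinations the counts were 6 in siD1+3B (25%), 4 in siD1+3A (22.8%) and 2 in siD1+3A+3B (18.6%). In the DNMT3 combinations they were 2 in 3A+3B (12.6%), 5 in 3A+3L (22.4%), 1 in 3B+3L (10.1%) and 5 in 3A+3B+3L (23.3%). Set against both controls together, 37 of the 110 passed, where 29.1% of all genes did. That share was 30.7% in siDNMT1, 35.6% in siDNMT3B, 33.2% in siDNMT3L and 29.5% in siDNMT3A. It was 27.4% in siD1+3A, 27.6% in siD1+3B, 24.4% in siD1+3A+3B, 26.7% in 3A+3B, 27.4% in 3A+3L, 32.8% in 3B+3L and 25.1% in 3A+3B+3L. CCND1 gave 11 of the 34, and of 99 differences of the other 9 genes 23 passed. Of the 10 genes, 4 gave none.

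The 9 comparisons among depletions of the second set use no control, and they called 15 of 90 differences, against 6.11% of all genes. Adding DNMT1 siRNA to siDNMT3A raised CCND1 by 0.38 (adjusted p = 0.00107) and lowered CDK6 by 0.27 (0.025) and CDKN1B by 0.22 (0.0445), 3 of 10 genes where 9.62% of all genes passed. Adding it to 3A+3B raised CCND1 by 0.41 (0.00103), 1 of 10 against 3.19%. In both of these comparisons CCND1 was higher with DNMT1 siRNA, and the 4 arrays with it did not overlap the 4 without. The CDK6 call was lost without replicate 1 of siD1+3A (-0.20) or of siDNMT3A (-0.20), and the CDKN1B call without any 1 of the 4 arrays (-0.23 to -0.21).

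Adding DNMT3L siRNA to siDNMT3A left CCND1 at a difference of 0.02 and lowered CCND2 by 0.35 (adjusted p = 6.46e-04) and CDKN1B by 0.37 (0.00172), 2 of 10 genes against 10.1%. The CDKN1B difference was -0.28 and not called without 3A+3L replicate 1. Adding it to 3A+3B lowered CCND2 by 0.44 (7.04e-05) and CDKN1B by 0.40 (6.92e-04) and raised CCND1 by 0.30 (0.00544) and CCNE1 by 0.23 (0.0256), 4 of 10 against 9.42%, in the arrays labelled 3A+3B+3L, whose DNMT3B level was 0.44 above that of 3A+3B. In both settings the arrays with DNMT3L siRNA were the lower ones for CCND2 and CDKN1B, without overlap. The CCNE1 call was lost without any 1 of the 4 arrays (0.21 to 0.25), and the CCND1 call without 3A+3B replicate 1 (0.20).

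Adding DNMT3A siRNA to 3B+3L lowered CCND2 by 0.43 (adjusted p = 3.56e-05), CDK6 by 0.33 (0.00309) and CDKN1B by 0.22 (0.0301) and raised CCNE1 by 0.41 (1.35e-04), 4 of 10 genes against 18.9%. These arrays are the ones labelled 3A+3B+3L, whose DNMT3B level was 0.45 higher than in 3B+3L. The CDKN1B call was lost without any 1 of the 4 arrays (-0.25 to -0.18). Adding DNMT3A siRNA to siD1+3B lowered CCNE2 by 0.54 (0.0358), 1 of 10 against 3.02%, a call that was lost without any 1 of the 4 arrays (-0.60 to -0.49).

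Adding DNMT3B siRNA called 0 of the 10 genes in 3A+3B against siDNMT3A, in siD1+3A+3B against siD1+3A and in 3A+3B+3L against 3A+3L (limma, 0, 1 and 2 genes at an unadjusted p under 0.05), where 0.0923%, 0.57% and 0.0977% of all genes passed. DNMT3B itself was 0.58 lower in the first (adjusted p = 3.44e-04), 0.41 lower in the second (0.00407) and 0.29 lower in the last (0.106, not called).

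**Figure D3:**
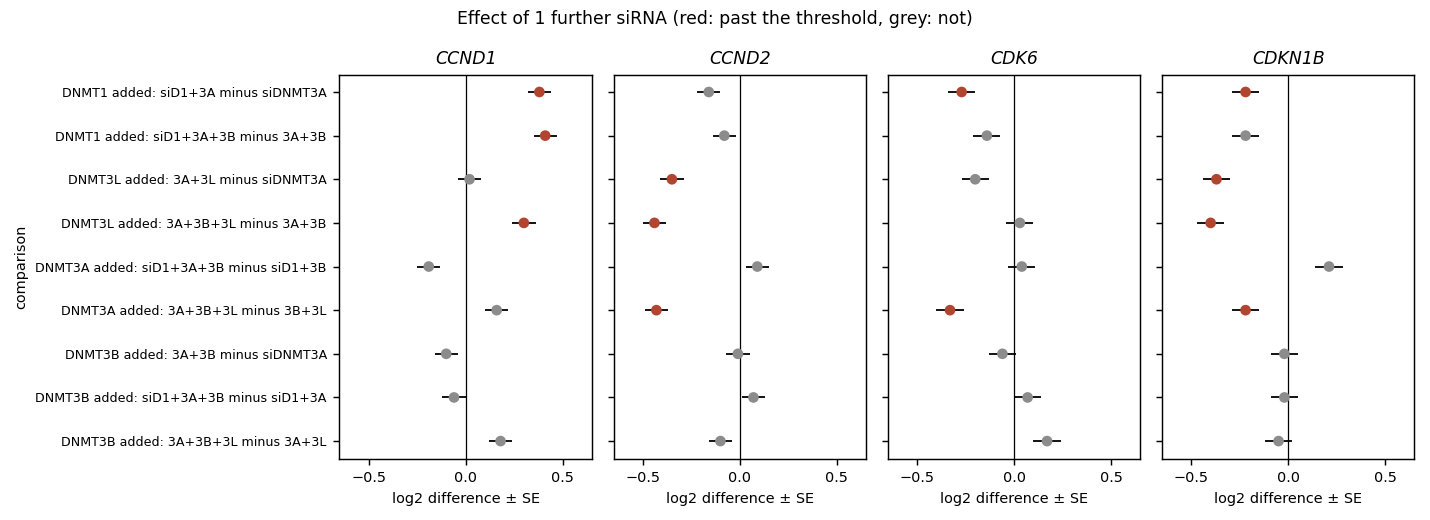
Log2 difference with its SE (horizontal axis) for 9 comparisons between depletions of the second set that differ by 1 siRNA (vertical axis), in 1 panel per gene. Red points passed the test and grey points did not. CCND1 lies to the right where DNMT1 siRNA was added (0.38 and 0.41), and CCND2 lies to the left where DNMT3L siRNA was added (-0.35 and -0.44).

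Markers of the integrated stress response moved with several of these changes. The list of 8 (DDIT3, CHAC1, TRIB3, ASNS, ATF3, DDIT4, INHBE and PSAT1) averaged 7.97 to 9.81 in the second set and 7.22 to 7.69 in the first. It averaged 8.42 in siD1+3A, 8.08 in siD1+3B, 8.95 in siD1+3A+3B, 8.19 in 3A+3L and 7.98 in 3A+3B+3L, each with 8 of 8 genes called lower than in siNTC-2 (9.81). In siDNMT3A (9.41), 3A+3B (9.54) and 3B+3L (9.78) 5, 3 and 0 of the 8 were lower. The 4 groups with higher CCNE1 and the 3 second-set groups with lower CDKN1B are among those 5, as are the 4 with lower CCND2. The siD1+3A+3B group, also among the 5, had no call in CCNE1, CDKN1B or CCND2. The steps that added DNMT1 or DNMT3L siRNA also lowered 7 or 8 of the 8. Adding DNMT3A siRNA to 3B+3L lowered 8 of 8 (median -1.93), and adding it to siD1+3B raised 8 of 8 (0.65). Between the controls, 8 of 8 were higher in siNTC-2 than in siNTC-1 (median 2.13). In the first set 3 to 6 of the 8 were lower in a depletion, and the CCND1 differences there were 0.97 to 1.16. The part of this response in the results was not tested.

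Between single depletions of the first set 6 of 30 differences passed, against 13.9% of all genes. CCND1 was not called in any of 3 comparisons. CCND2 was 0.27 higher in siDNMT1 (adjusted p = 0.00459) and 0.32 higher in siDNMT3B (0.00134) than in siDNMT3L. CDK6 was 0.26 lower in siDNMT1 (0.0231) and 0.38 lower in siDNMT3B (0.00185) than in siDNMT3L, and CDKN1B was 0.21 higher (0.0451) and 0.37 higher (0.00149). These are 3 of 10 genes in each comparison, against 12.6% and 10.8% of all genes. The siDNMT1 call of CDK6 was lost without siDNMT1 replicate 1 (-0.23) or either siDNMT3L array (-0.28 and -0.25), and that of CDKN1B without any 1 of the 4 arrays (0.18 to 0.25). Between siDNMT1 and siDNMT3B 0 of the 10 genes passed (limma, 2 at an unadjusted p under 0.05, and 1 called with a trended and robust variance prior), although 18.3% of all genes did.

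The effect of an siRNA in the presence of DNMT3A siRNA was also tested against its effect alone, in 3 comparisons that called 8 of 30 differences, against 10.3% of all genes. For DNMT1 siRNA CCND1, CCND2 and CDK6 passed (12.7% of all genes), for DNMT3L siRNA the same 3 genes (8.32%) and for DNMT3B siRNA CCND1 and CCND2 (9.97%). All 8 were negative: the effect in siDNMT3A cells of the second set was lower on the log2 scale than the effect alone in the first. The set and the DNMT3A siRNA cannot be told apart here. The same siDNMT3A and siNTC-1 arrays enter all 3 comparisons, so the 8 calls are not independent. CCND1 shows the size, with 0.38 after DNMT1 siRNA was added to siDNMT3A and 1.16 after DNMT1 siRNA alone.

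The 2 control groups, which carry no siRNA against a DNMT, differed in 6 of the 10 genes, where 44.7% of all genes were called and the 8 stress genes were all higher in siNTC-2 (median 2.13). In siNTC-2 against siNTC-1, CCND2 (0.57), CDKN1B (0.49), CDK6 (0.26, adjusted p = 0.00582) and CCND1 (0.23, 0.00745) were higher, and CCNE2 (-0.56, 0.00232) and CCNE1 (-0.22, 0.00857) were lower. CCND2 arrays read 11.58 and 11.63 in siNTC-2 and 11.14 and 10.93 in siNTC-1. CCNE2 arrays read 6.22 and 5.88 in siNTC-2 and 6.61 and 6.61 in siNTC-1. Leaving out 1 array ended the call of CCND1 (0.15 without siNTC-1 replicate 1), CCNE1 (-0.14 without siNTC-1 replicate 2, -0.17 without siNTC-2 replicate 1), CCNE2 (-0.39 without siNTC-2 replicate 2) and CDK6 (0.20 without siNTC-2 replicate 1).

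Genes that act with these regulators were read from 5 lists. Of 13 genes of the retinoblastoma and E2F families, 2 rose and 4 fell in siDNMT1 (median -0.14, against -0.03 over all genes), where 19.8% of all genes passed. In the other depletions 0 to 3 rose and 1 to 4 fell, with medians of -0.11 to 0.02, where 10.1% to 25% of all genes passed. Between the controls 5 were higher and 1 lower in siNTC-2 (median 0.11, range -0.57 to 0.47, 44.7% of all genes). The values below therefore depend on the control used. RB1, the retinoblastoma gene, fell in 6 depletions, by 0.35 in siDNMT1 (adjusted p = 0.00108), 0.31 in siD1+3B, 0.27 in siD1+3A, 0.25 in siD1+3A+3B, 0.21 in 3A+3L and 0.20 in 3A+3B+3L. E2F1, an activator, fell in 7, by 0.43 in siDNMT3L, 0.36 in siDNMT1, 0.33 in 3A+3L and between 0.22 and 0.27 in siDNMT3B, siDNMT3A, 3A+3B and 3B+3L, while E2F7, a repressor of the family, was 0.45 higher in siDNMT1.

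Of 12 E2F target genes of S phase, 11 fell in siDNMT1 (median -0.22), where 19.8% of all genes passed, and 7 fell in siDNMT3L (-0.21, 19.2%). In siDNMT3B 4 fell (-0.13, 24.2%), and none rose in these 3 groups. MCM6, a subunit of the replicative helicase, was 0.46 lower in siDNMT1 (adjusted p = 1.36e-05), and RRM2, of ribonucleotide reductase, was 0.36 lower. In the second set 0 to 5 rose and 1 to 3 fell in a depletion, where 10.1% to 25% of all genes passed. Medians of the list were -0.14 to 0.03. In siD1+3B, 3A+3L and 3A+3B+3L the largest rise was that of PCNA, the sliding clamp of DNA polymerase (0.46, 0.45 and 0.50). RRM2 was 0.40, 0.41 and 0.48 higher in these groups. The medians of the list there were -0.05, -0.04 and 0.03, and its lowest genes were at -0.40, -0.37 and -0.28. The same list was lower in siNTC-2 than in siNTC-1, with 10 of 12 lower and 2 higher (median -0.41, 44.7% of all genes), MCM7 by 1.06 and RRM2 by 1.00.

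Of 12 later cyclins, kinases and activators, 4 groups of the second set called 5 or 6 higher, with 6 higher and 1 lower in siD1+3A (median 0.16), 5 and 0 in siD1+3B, 5 and 0 in 3A+3L (0.16) and 5 and 1 in 3A+3B+3L. In these groups 22.8%, 25%, 22.4% and 23.3% of all genes passed, in that order. The other second-set groups had 1 higher and 1 lower (siD1+3A+3B, 18.6% of all genes), 0 and 1 (siDNMT3A, 15.8%), 1 and 1 (3A+3B, 12.6%) and 2 and 0 (3B+3L, 10.1%). CCNB1, the mitotic cyclin, was 0.35 higher in siD1+3B and 0.36 in 3A+3L, and CDK1, its kinase, was 0.38 and 0.51 higher. In the first set the list had 3 higher and 1 lower in siDNMT3B (24.2% of all genes), 2 and 1 in siDNMT3L (19.2%), and 1 and 5 in siDNMT1 (19.8%). In siDNMT1 CDC25B, a phosphatase that activates CDK1, was 0.50 lower and CDK1 0.40 lower. Between the controls, 3 genes of the list were higher (up to 0.58) and 5 lower in siNTC-2 than in siNTC-1 (median -0.13, 44.7% of all genes). CDK1 was 0.82 lower and CCNB1 0.18 lower.

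Of 4 other CDK inhibitors 3 were measured, of which CDKN2D was called lower in siDNMT1 (-0.34) and siDNMT3B (-0.30). CDKN1A, p21 and a p53 target, was 0.50 higher in siDNMT1 (adjusted p = 0.00368) and 0.51 higher in siDNMT3B, both of the first set. It was lower in siDNMT3A (-0.44), siD1+3A (-0.38), 3A+3L (-0.46, 0.00495) and 3A+3B+3L (-0.54, 0.00152) of the second, and it was 0.70 higher in siNTC-2 than in siNTC-1. Of 9 genes of cyclin and p27 turnover, 1 to 4 rose and 0 to 2 fell in a depletion, where 10.1% to 25% of all genes passed. Between the controls 2 were higher and 3 lower in siNTC-2 (44.7% of all genes). CKS1B, the cofactor that lets the SCF ligase bind p27, was 0.13 higher in siDNMT1 and 0.22 in siDNMT3L. It was 0.22 higher in siD1+3B, 0.21 in 3A+3L and 0.19 in 3A+3B+3L. SKP2, the substrate receptor of that ligase, was lower, for example, in siDNMT1 (-0.22), siD1+3B (-0.15), 3A+3L (-0.17) and 3A+3B+3L (-0.14). In these groups 1, 1, 1 and 2 of the 9 genes were called lower, and the lowest values were -0.22, -0.33, -0.30 and -0.55. Not every SKP2 value need be among the calls. AMBRA1, the receptor through which D cyclins are degraded, was 0.25, 0.32 and 0.35 higher in siD1+3B, 3A+3L and 3A+3B+3L.

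The genes whose group means followed a member most closely were found over the 13 groups, each centred on its set (Pearson r, a description with no test, in which groups of a set lie on the same side of the main axis). For CCND1, with a range of 1.16 within a set, they were SLC26A2, a sulphate transporter (r = 0.946), DAD1, an oligosaccharyltransferase subunit (0.938), and GLRX, a glutaredoxin (0.937). For CDK6, with a range of 0.56, they were CHMP4C (0.941), ORC5 (0.923) and SLC24A1 (0.922). For CCNE2, with a range of 0.62, they were SRPK1 (0.926), OR52N4 (0.891) and SSR3 (0.88). Group means of OR52N4 were 3.99 to 4.42, highest in siD1+3B and all under the lowest quartile of all genes (4.87). Among the 10 members themselves the closest pair was CCND3 and CDK4 (0.89), neither of which was called, and the most opposed pair was CCNE1 and CDK6 (-0.80).

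The order of group means also placed the depletions. For CCND1 it ran downward from siDNMT1 (8.87), siD1+3B (8.76), siDNMT3B (8.68), siDNMT3L (8.68), siD1+3A (8.64), siD1+3A+3B (8.57) and 3A+3B+3L (8.46) through 3B+3L (8.29), 3A+3L (8.27), siDNMT3A (8.26) and 3A+3B (8.16), where neighbours overlapped, to siNTC-2 (7.93) and siNTC-1 (7.71). For CDKN1B the lowest was siDNMT3L (8.04) and the highest siDNMT3A (9.05), with 8 of 12 neighbouring pairs overlapping. All 4 groups of the first set stood lowest, and the groups of the second set averaged 0.54 above those of the first. Overlaps of neighbours numbered 6 of 12 for CCND2, 8 for CDK6, 9 for CCNE1, 10 for CCND3 and CDK4, and 12 for CDKN2A.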

How the data were processed

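Transcript levels were measured on 26 Affymetrix arrays, 13 groups of 2, and groups were taken from the sample titles. The deposited values are log2 expression per transcript cluster, as the authors made them. The log base was inferred from their range (3.04 to 14.87). Partek is named, without version or role, per the submitters' processing notes, while background correction and normalization are not stated in the labels or headers (not given in the sources used here). Array medians lay between 6.28 and 6.33.

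Of 33297 clusters, 19460 name 1 gene by the platform annotation, 1754 several and 12083 none. The RefSeq table matched 19429 of the first, for names only. For the 769 genes with several clusters the one with the highest mean was kept, leaving 18417 genes. Low values were kept, and the number of arrays limits the precision.

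With limma 3.58.1 (lmFit, eBayes, R 4.3.3), 13 group means were fitted to all arrays, and two-sided p-values were adjusted by Benjamini and Hochberg over all 18417 genes, and called under 0.05. The script was tested on simulated data. The 27 comparisons were 11 depletions against the control of their set, siNTC-2 against siNTC-1, 9 additions of 1 siRNA, 3 direct comparisons of single depletions and 3 differences between effects. The sets come from the expression values, and members, gene lists and the choice of control were made with earlier results of these data known. Named genes are the members, the siRNA targets, up to 3 genes of a list with the smallest adjusted p in the comparison described, with neighbours of CDKN1C and CDKN2A and 3 likeness genes for each of 3 members. Values of a named list gene in further comparisons, and AMBRA1, were picked after their values were seen. Alternatives were both controls, a filter on the dimmest 40%, quantile normalization, a trended and robust prior, array weights, the replicate block, all clusters, only the groups compared, and each array left out. Replicate numbers did not pair the arrays (9 of 78 pairs of groups correlated above 0.1, range -0.26 to 0.19). Promoter windows came from RefSeq, GRCh38.p14, for 6 of the 10 members. The chromosome of CCNE2 was left out when members were matched, so a window of CCNE2 could not be found. The GC box, the CCAAT box and 2 forms of the E2F site were searched on both strands.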

Additional observations from a re-analysis of the deposited data

Results flagged for a closer look

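An effect in the presence of DNMT3A siRNA and the effect of the same siRNA alone were tested against each other. The effect of DNMT1 siRNA on CCND1 was smaller with DNMT3A siRNA (0.38, siD1+3A minus siDNMT3A) than alone (1.16, siDNMT1 minus siNTC-1), a difference of -0.78 (limma adjusted p = 3.12e-05). For CCND2 the same difference was -0.49 (8.38e-04) and for CDK6 -0.37 (0.0244), a call that was lost without siNTC-1 replicate 2 (-0.33), siDNMT1 replicate 2 (-0.34), siD1+3A replicate 1 (-0.30) or siDNMT3A replicate 1 (-0.30). For DNMT3L siRNA the differences were -0.96 in CCND1 (4.37e-06), -0.41 in CCND2 (0.00373) and -0.56 in CDK6 (0.00207). For DNMT3B siRNA they were -1.07 in CCND1 (5.71e-07) and -0.39 in CCND2 (0.00449). Of the 10 genes 3, 3 and 2 were called, against 12.7%, 8.32% and 9.97% of all genes. Every effect alone came from the first set of arrays and every effect with DNMT3A siRNA from the second. The set and the presence of DNMT3A siRNA therefore cannot be told apart. The same siDNMT3A and siNTC-1 arrays enter all 3 comparisons, so these are not independent. Of the 13 groups, siNTC-1 had the lowest mean of CCND1 (7.71) and of CCND2 (11.03).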

How the results depend on the processing

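With the mean of both controls 37 of the 110 differences were called, against 34, and 21 of them were called the same way under both. CCND2 took the other sign in siD1+3A (0.07), siD1+3B (0.04), siDNMT3A (0.22), siDNMT3L (-0.23), 3A+3B (0.21) and 3B+3L (0.20), of which siDNMT3A, siDNMT3L, 3A+3B and 3B+3L were called with it, and in siD1+3A+3B (0.13), called neither way. The cause was not tested. Fitted with only the groups compared, which leaves fewer arrays to estimate the spread, the depletions against the control of their set gave 25 calls, against 34. The direct comparisons of single depletions then gave 0 calls, against 6, and the differences between effects 5, against 8. Leaving out 1 array gave 28 to 35 calls for depletions against controls, 4 to 6 for the controls, 12 to 16 for added siRNAs, 4 to 8 for direct comparisons and 7 to 9 for the differences. With the replicate block, which the replicate numbers do not warrant, the counts were 34, 6, 15, 7 and 8, and 1 call was gained (CCND1, 0.18 in siDNMT1 against siDNMT3B). The values depend on 2 arrays per group, on 2 sets that no label explains, and on weak signal for CDKN2A.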
